A study of Mus musculus with 6 samples.

Results

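The genes that encode the proteins of the cytosolic ribosome and of the mitochondrial ribosome were examined in a mouse macrophage cell line with and without knockdown of Trem2. Members were the genes that the deposited annotation placed in the KEGG Ribosome pathway and whose symbols began with Rpl, Rps, Mrpl or Mrps, except Rps27l. This rule used no expression value and gave 127 of the 138 genes of that pathway, among 56092 gene symbols in the count table. They comprised 84 cytosolic genes, of which 53 were Rpl genes of the large subunit and 31 were Rps genes of the small subunit, and 43 mitochondrial genes, of which 28 were Mrpl and 15 were Mrps genes.

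All libraries came from RAW264.7, an established mouse macrophage line carried as stable lentiviral lines selected with puromycin and marked with GFP. The shNC group carried the control shRNA vector, which the labels call an empty vector control, and the shTrem2 group carried an shRNA against Trem2, a lipid-sensing surface receptor of macrophages. Cells of both groups were held for 24 hours in IL-4 (20 ng/mL) and then for 24 hours with debris of freeze-thawed TCMK-1 renal tubular cells, so neither untreated cells nor cells without debris were part of the comparison. There were 3 libraries of poly(A)-selected RNA per group. Which of the shRNA sequences and which debris concentration these libraries had was not given in the sources used here. The labels do not say whether replicates were separate cultures, so the p-values measure the spread between these libraries, which may be technical.

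Counts assigned to named genes ranged from 15876119 to 18088388 in shNC and from 19358125 to 19655165 in shTrem2, so every shTrem2 library was deeper. Trem2 was at 114, 122 and 144 CPM (gene counts scaled to library size by TMM) in shNC and at 64.7, 63.2 and 80.2 in shTrem2, with no overlap (log2 fold change -0.87, SE 0.09, FDR 3.39e-06 by edgeR). From the most abundant of its transcript rows alone the log2 fold change was -2.15. Of the 10 macrophage markers listed, Mertk had at most 3 counts in a library and was not tested. The other 9, among them Csf1r, Spi1, Ptprc, Cd68 and Lyz2, were present in all libraries. Their list of 10 summed to between 5660 and 6615 CPM in shNC and between 10567 and 11934 CPM in shTrem2, mainly through Lyz2, and 7 of the 9 tested rose while Itgam and Adgre1 fell. Of 18 tubular epithelial markers, 11, among them Umod, Epcam and Cdh1, had no count in any library, and the list summed to between 0.956 and 1.51 CPM in shNC and between 2.31 and 2.94 CPM in shTrem2, mainly through Aqp1. The fibroblast and endothelial list summed to between 3.98 and 6.13 CPM in shNC and between 3.13 and 4.48 CPM in shTrem2. The part of depth and of these markers in the results below was not tested.

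A cytosolic ribosome is built from ribosomal RNAs and a fixed set of ribosomal proteins, and the mRNAs of these proteins are among the most abundant in growing cells. Their mRNAs typically begin with a 5' terminal oligopyrimidine (5'TOP) tract, a C followed by a run of C and T bases, through which mTORC1 and LARP1 regulate their translation and stability. The mitochondrial ribosome has its own proteins, all encoded in the nucleus and imported, and translates the few mRNAs of the mitochondrial genome, whose products are subunits of oxidative phosphorylation.

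Most cytosolic ribosomal protein genes fell in shTrem2, and among mitochondrial ribosomal protein genes more rose than fell. The cytosolic genes took 5.32%, 5.40% and 5.52% of named-gene counts in shNC and 4.70%, 4.75% and 4.405% in shTrem2. Every shTrem2 library lay below every shNC library, and the means were 5.41% ± 0.102 and 4.62% ± 0.186 (SD, n = 3 each). The mitochondrial genes took 0.200%, 0.198% and 0.203% in shNC and 0.214%, 0.211% and 0.219% in shTrem2, again without overlap but in the other direction. The ratio of cytosolic to mitochondrial counts was 26.6, 27.3 and 27.2 in shNC and 21.9, 22.5 and 20.1 in shTrem2. Both the Rpl share (3.27% ± 0.0562 against 2.80% ± 0.109) and the Rps share (2.14% ± 0.0462 against 1.82% ± 0.0768) were lower in shTrem2. In bulk samples fewer cells and less RNA per cell cannot be told apart, and a share falls when other genes take more of the counts.

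**Figure D1:**
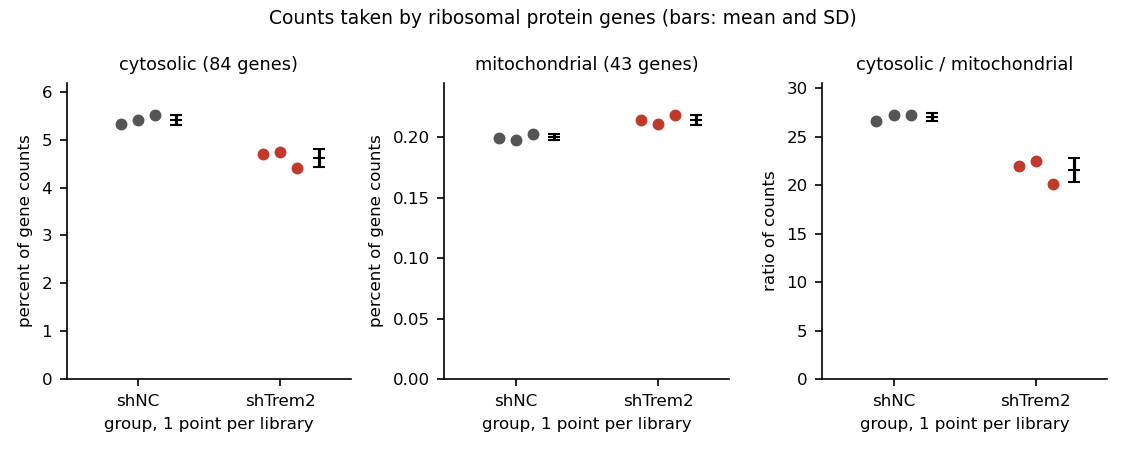
Percent of named-gene counts taken by the 84 cytosolic and the 43 mitochondrial members, and the ratio of both counts, in each library of shNC (grey) and shTrem2 (red), with mean and SD beside the points. The cytosolic share lies at 5.32% to 5.52% in shNC and 4.405% to 4.75% in shTrem2, and the mitochondrial share at 0.198% to 0.203% and 0.211% to 0.219%.

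A filter on low counts left 122 members among 13528 genes tested, of which 79 were cytosolic and 43 mitochondrial. The 5 members left out were Rpl10l and Rpl39l with no count, and Rpl3l, Rpl35rt and Rpl17-ps8 with at most 13 counts in a library. With edgeR's quasi-likelihood test and a Benjamini-Hochberg FDR under 0.05 over all genes tested, 57 of the 79 cytosolic genes fell, against 28.6% of all genes tested. Only 2 of them, Rpl22l1 and Rpl5, rose, against 28.8% of all genes tested. The remaining 20 did not pass the test. Among the 43 mitochondrial genes 20 rose, 4 fell (Mrps9, Mrps10, Mrps17 and Mrpl24) and 19 did not pass.

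The changes were small. Cytosolic genes that fell did so by between 7.43% and 35.6%, with a median of 16.04%, and mitochondrial genes that rose did so by between 10.7% and 83.3%, with a median of 26.9%. The median log2 fold change was -0.18 over Rpl and -0.17 over Rps genes, 0.13 over Mrpl and 0.22 over Mrps genes, and -2.84e-05 over all genes tested. Within the cytosolic class 35 of 48 Rpl and 22 of 31 Rps genes were lower. Groups did not overlap, with shTrem2 below shNC, for 60 of 79 cytosolic genes (31.7% of all genes tested) and 7 of 43 mitochondrial genes. They did not overlap in the upward direction for 2 cytosolic and 22 mitochondrial genes (32.1% of all genes tested). Of the 122 members, 4 also passed a 1.5-fold threshold (21.8% of all genes tested), namely Rpl12, Rpl22l1, Mrpl20 and Mrps6. Of these, 3 went under 1.5-fold in some of the 21 alternative fits. Rpl22l1 did so in 8 of them (lowest log2 fold change 0.56), Mrpl20 in 2, without shTrem2 replicate 3 and by limma-trend on log2(FPKM + 1) (both 0.58), and Rpl12 with its most abundant transcript row alone (-0.53).

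**Figure D2:**
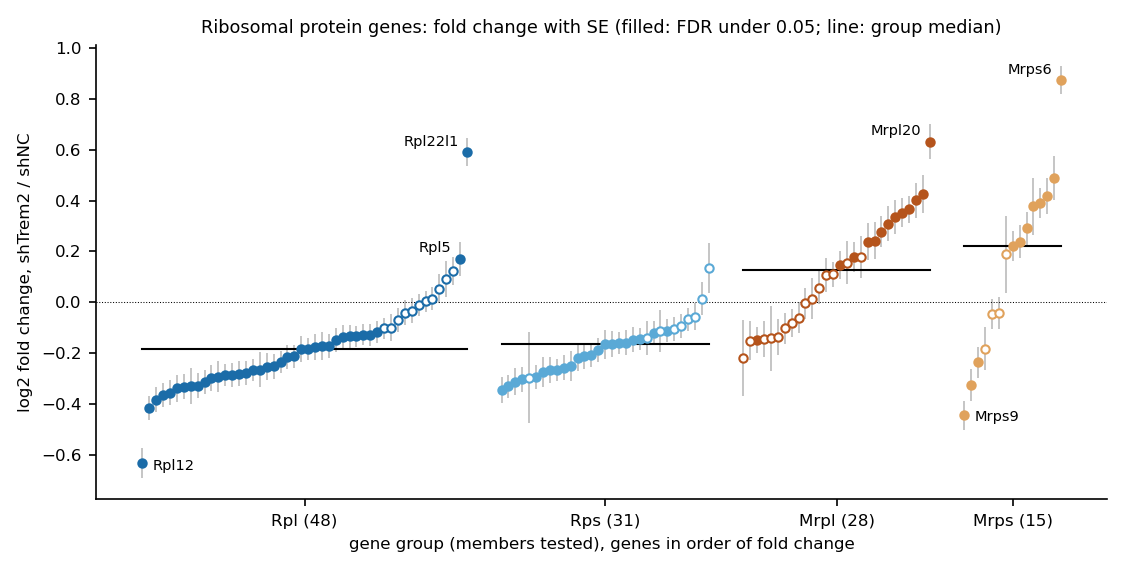
Log2 fold change of each tested member between shTrem2 and shNC with its SE, ordered within Rpl, Rps, Mrpl and Mrps. Filled points have an FDR under 0.05 and the horizontal line is the group median. Most Rpl and Rps genes lie below 0 and most Mrpl and Mrps genes above it, with Rpl22l1, Rpl12, Mrpl20 and Mrps6 farthest out.

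The deposited FPKM, which is per transcript length, was used to compare levels of different genes. Such levels depend on the length taken for each gene. CPM ordered genes otherwise, with Rpl4 at 3404 CPM and 2845 FPKM and Rps27 at 256 CPM and 5968 FPKM in shNC. The median over tested cytosolic genes in shNC was 1694 FPKM, 28.1 times the median of 60.3 FPKM over mitochondrial genes. Rps27 was the highest cytosolic gene in shNC at 5968 ± 130 FPKM, followed by Rpl23a at 5796 ± 140 and Rplp1 at 5718 ± 55.2. Mrps21 and Mrpl33 were the highest mitochondrial genes at 277 ± 21.4 and 265.5 ± 9.86 FPKM, and Mrpl35 was the lowest at 10.3 ± 1.30 FPKM. Rps27 was at 256 ± 12.4 CPM in shNC and 232 ± 24.4 in shTrem2 (log2 fold change -0.14, FDR 0.0864), and Rplp1 at 989 ± 17.7 and 943 ± 50.3 (FDR 0.24). Rps27 was called lower in 7 of 21 alternative fits, both on counts (library size only, no filter, without shNC replicate 1 or shTrem2 replicate 2) and with FPKM or the length offset, with FDR values from 0.012 to 0.0475. With cytosolic genes split into 3 classes by mean FPKM, 18 of 26 of the lowest, 17 of 26 of the middle and 22 of 27 of the highest class fell.

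Within the large subunit, the widest fall was that of Rpl12, a protein of the base of the P stalk, where elongation factors dock. Rpl12 was at 94.0, 89.3 and 82.3 CPM in shNC and at 56.4, 57.9 and 56.7 CPM in shTrem2, so the groups were far apart relative to their spread (log2 fold change -0.63, SE 0.06, FDR 8.47e-07). On FPKM it was at 143 ± 11.2 and 76.4 ± 3.07, and the log2 fold change with effective length as an offset was -0.87, whereas that of its most abundant transcript row alone was -0.53. Of the other stalk genes, Rplp2 fell by 0.17 on the log2 scale, a call lost without shNC replicate 3 (FDR 0.0668), and Rplp0, at 1608, 1611 and 1650.3 CPM against 1632, 1644 and 1604 CPM, had a log2 fold change of 0.00 (SE 0.04).

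Genes at the exit tunnel, through which the new chain leaves the ribosome, fell in 5 of 7 cases (71.4%). This share was near the 72.2% of all tested cytosolic genes. The median log2 fold change of the 7 genes was -0.28. Rpl4, whose loop reaches into the tunnel wall, was at 3324, 3382 and 3506 CPM in shNC and at 2641, 2706 and 2483 CPM in shTrem2 (log2 fold change -0.38, SE 0.05). This gene alone made up 11.7% of the summed CPM difference of the tested cytosolic genes, and the 10 genes with the largest CPM differences made up 42.5%. Rpl17 went from 949, 976 and 988 to 742, 754 and 687 CPM (log2 fold change -0.42, SE 0.05). Rpl26, Rpl23a and Rpl35 also fell, by 0.36, 0.28 and 0.13, while Rpl31 and Rpl39 did not pass the test, with log2 fold changes of -0.03 and 0.09. Rpl39 passed without shTrem2 replicate 3 (log2 fold change 0.17, FDR 0.0115). The call of Rpl35 was lost without any of 3 libraries (shNC replicates 2 and 3 and shTrem2 replicate 1) and with the length offset (FDR 0.0513).

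Rpl5 and Rpl11, which form the 5S ribonucleoprotein and can bind Mdm2 outside the ribosome, were called in opposite directions. Rpl11 was at 677, 682 and 696 CPM in shNC and at 601, 605 and 567 CPM in shTrem2 (log2 fold change -0.21, SE 0.04, FDR 9.46e-04). Rpl5 was at 48.7, 54.8 and 58.6 CPM in shNC and at 60.9, 61.4 and 60.4 CPM in shTrem2, which is a weak call (log2 fold change 0.17, SE 0.07, FDR 0.0413). It was lost in 5 of 6 fits without 1 library (each except that without shNC replicate 3, FDR up to 0.248) and in 6 other fits, including DESeq2 (FDR 0.0774) and the most abundant transcript row alone (FDR 0.283). Rpl5 was also the lowest of the tested Rpl genes, at 56.8 ± 3.56 FPKM in shNC.

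The paralogs Rpl22 and Rpl22l1 moved apart. Rpl22 is a large-subunit protein known in mouse cells to hold down expression of Rpl22l1, which can take its place in the ribosome. Rpl22 was at 372, 388 and 397 CPM in shNC and at 323, 307 and 284 CPM in shTrem2 (log2 fold change -0.34, SE 0.05, FDR 8.23e-05). Rpl22l1 was at 63.1, 65.6 and 64.3 CPM in shNC and at 97.9, 102 and 91.2 CPM in shTrem2, without overlap (log2 fold change 0.59, SE 0.06, FDR 9.44e-07). Per transcript length Rpl22 remained the more abundant of the pair, at 2195 ± 32.7 and 1775 ± 38.8 FPKM against 295 ± 3.19 and 436 ± 15.8 FPKM for Rpl22l1. Of the other tested paralogs Rpl36al fell by 0.31, and Rps27rt, with a log2 fold change of -0.30, did not pass (SE 0.18). Outside the members, Rpl7l1 rose by 0.27 and Rps27l fell by 0.13, a call lost in 3 of 6 fits without 1 library and with the length offset.

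**Figure D3:**
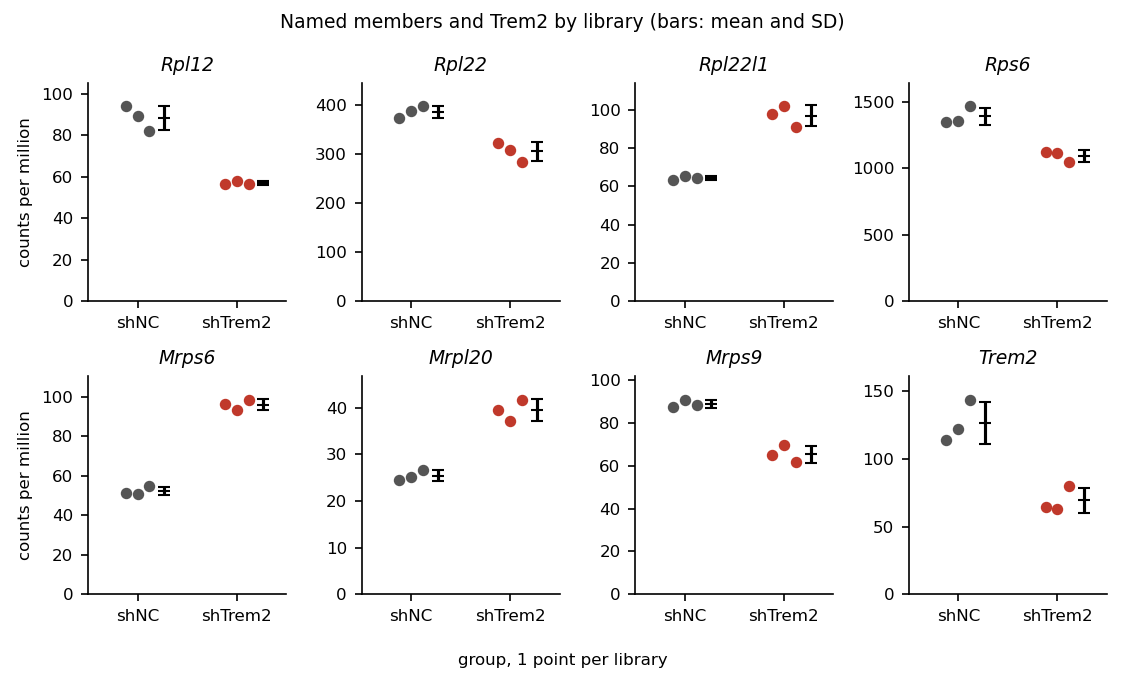
CPM of 7 members and of Trem2 in each library of shNC (grey) and shTrem2 (red), with mean and SD beside the points and each axis starting at 0. Rpl12, Rpl22, Rps6 and Mrps9 are lower in all 3 shTrem2 libraries and Rpl22l1, Mrps6 and Mrpl20 are higher in all 3.

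In the small subunit no gene rose. Rps6, the substrate of S6 kinase downstream of mTORC1, had the widest fall, from 1347, 1352 and 1463 CPM to 1124, 1110.4 and 1043 CPM (log2 fold change -0.34, SE 0.05, FDR 4.90e-05). Rps23, at the decoding site, and Rps10, at the head of the subunit, fell by 0.33 and 0.31. Of the genes at the mRNA entry channel Rps3 fell by 0.21, while Rps9 and Rps2 did not pass, with log2 fold changes of -0.07 and 0.14. Rps27a, made as a fusion with ubiquitin, fell by 0.27. Fau, which encodes a ribosomal protein fused to a ubiquitin-like protein and is not a member by name, had a log2 fold change of 0.12 (SE 0.07) and passed only without shNC replicate 3 (0.21, FDR 0.0112).

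Among the mitochondrial genes the widest rise was that of Mrps6, a small-subunit protein with a bacterial counterpart. It was at 51.3, 50.8 and 54.9 CPM in shNC and at 96.3, 93.1 and 98.5 CPM in shTrem2 (log2 fold change 0.87, SE 0.06, FDR 2.18e-08). Mrpl20, of the large subunit, rose from 24.5, 25.1 and 26.7 to 39.5, 37.0 and 41.7 CPM (log2 fold change 0.63, SE 0.07, FDR 4.46e-06). Each gene had all shTrem2 libraries above all shNC libraries. Further rises were 0.49 for Mrps11, 0.43 for Mrpl18, 0.42 for Mrps2, 0.40 for Mrpl28, 0.39 for Mrps21 and 0.18 for Mrpl33 on the log2 scale, the last lost without shNC replicates 2 or 3 or shTrem2 replicate 3, with DESeq2 and with library size only. Mrpl12, which also binds the mitochondrial RNA polymerase, was at 77.7, 91.5 and 90.2 CPM against 103, 93.0 and 110.0 CPM (log2 fold change 0.24, SE 0.07, FDR 0.0125), a call lost without shNC replicate 1 (FDR 0.0894) or shTrem2 replicate 3 (FDR 0.0564), in both FPKM fits (FDR 0.0736 and 0.0724) and with the most abundant transcript row alone (FDR 0.0604).

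The class was not uniform. Mrps9 fell from 87.4, 90.7 and 88.2 to 64.8, 69.4 and 61.5 CPM (log2 fold change -0.44, SE 0.06, FDR 1.64e-05), and Mrps10 from 58.4, 53.0 and 54.9 to 44.4, 41.8 and 46.5 CPM (log2 fold change -0.33, SE 0.06). These falls stood in the same subunit as the rises of Mrps6, Mrps11 and Mrps2. Those of Mrps17 (-0.24) and Mrpl24 (-0.15) depended on how transcripts were counted, since the log2 fold changes from the most abundant transcript row alone were 0.09 and 0.04. The call of Mrpl24 was also lost without shNC replicate 3 (FDR 0.0659) or shTrem2 replicate 1 (FDR 0.14). Mrpl35 and Mrps12, the Mrpl and the Mrps gene with the lowest FPKM, did not pass, with log2 fold changes of -0.14 and 0.19, though Mrpl35 passed with library size only (FDR 0.0472). Mitochondrially encoded genes took between 3.77% and 3.81% of counts in shNC and between 3.73% and 4.16% in shTrem2, so the groups overlapped in that share.

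As examples of 5' ends, 30 bases around the RefSeq transcription start are given for 8 members, with the longest run of C and T in capitals. The windows hold 10 bases before the start and 20 from it on (build GRCm38.p6, sense strand). The cytosolic examples are Rps6 (chr4:86857348-86857377, minus strand) and Rps10 (chr17:27635225-27635254, minus strand), which fell, Rps27 (chr3:90213629-90213658, minus strand), whose call varied between fits, Rpl12 (chr2:32961702-32961731, plus strand), with the widest fall, and Rpl22l1 (chr3:28805498-28805527, plus strand), which rose. The mitochondrial examples are Mrps6 (chr16:92058326-92058355), Mrpl20 (chr4:155802868-155802897) and Mrps9 (chr1:42851223-42851252), all on the plus strand.
Rps6: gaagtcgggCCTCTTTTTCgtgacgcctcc
Rps10: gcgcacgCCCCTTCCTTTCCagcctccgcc
Rps27: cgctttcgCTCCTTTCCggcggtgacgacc
Rpl12: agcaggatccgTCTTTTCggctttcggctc
Rpl22l1: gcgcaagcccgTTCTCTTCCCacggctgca
Mrps6: tcgccgTCCgggagctgaccggccgtgttc
Mrpl20: ttcggaagagctgtcagtgCTCTTaaccct
Mrps9: ggtctgcgcctgcgcagTCTCCaggctcca

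The run was 10 bases long in Rps6, 13 in Rps10, 9 in Rps27, 7 in Rpl12 and 10 in Rpl22l1, and 3, 5 and 5 bases long in Mrps6, Mrpl20 and Mrps9. Promoter sequences were held for 61 cytosolic and 39 mitochondrial members. The median longest run was 6 bases in the cytosolic and 5 in the mitochondrial genes, and 4 over all promoters. The examples therefore show a wider contrast than the classes do. A run of at least 8 bases lay in this window for 20 of the 61 cytosolic genes (32.8%), 3 of the 39 mitochondrial genes (7.69%) and 11.2% of 27025 promoters of all genes. A C at the start itself followed by 4 bases that were each C or T was found for 13 cytosolic genes (21.3%), no mitochondrial gene and 2.49% of all promoters. Over 300 bases (250 before the start and 50 from it on) and both strands, the ETS family motif CCGGAAGT was in 18.0% of cytosolic, 12.8% of mitochondrial and 4.00% of all promoters. The NRF1 motif GCATGCGC was in 3.28%, 15.4% and 2.80%, the YY1 motif AAGATGGC in 6.56%, 17.9% and 2.88%, and the E-box CACGTG in 8.20%, 10.3% and 7.24%. These are matches of letters at reference starts, and the starts used in these cells were not measured. Rpl22l1, which rose, held as long a run as Rps6, which fell, but the runs were placed differently. That of Rps6 covered the start base, a C, while that of Rpl22l1 began after the start base, a G. Whether these runs bear on the changes was not tested.

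The deposited counts have a row for each transcript. In the cytosolic genes the share of counts outside the most abundant row was more often higher than lower in shTrem2. Among 74 cytosolic members with several rows this share was higher in all shTrem2 libraries than in all shNC libraries for 35 (11.6% of all tested genes with several rows) and lower for 4 (11.5% of all tested genes with several rows). In the mitochondrial class the counts were 7 and 7 of 42. Most shifts were small, as the median cytosolic share was 2.01% in shNC and 2.50% in shTrem2. The median difference was 0.35 percentage points in the cytosolic and 0.36 in the mitochondrial class, and 0 over all tested genes with several rows. Of the cytosolic genes that fell in total, 55 had several rows, and the share was higher for 29 and lower for 4 of them.

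Rpl3, whose protein is known to steer its own pre-mRNA toward an isoform that is degraded, had 6.99%, 7.23% and 7.13% of its counts outside the main row in shNC and 13.7%, 12.9% and 14.8% in shTrem2. In CPM these minor rows went from 48.3 ± 1.63 to 77.8 ± 2.59 while the gene as a whole fell by 0.27 on the log2 scale. Rpl30 went from 14.0%, 12.7% and 11.6% to 20.8%, 19.9% and 21.4%, and Rpl35a from 10.96%, 9.92% and 9.99% to 17.2%, 16.5% and 19.1%. The opposite was seen for Rpl22, at 17.4%, 16.4% and 18.7% against 12.3%, 13.6% and 10.8%. In absolute terms the CPM of the minor rows did not overlap upward for 22 of the 74 genes (15.4% of all tested genes with several rows) and downward for 11 (16.7% of all tested genes with several rows), and the groups overlapped for 41. The rows carry gene symbols and no transcript names, so what the minor transcripts are, such as retained introns or other 5' ends, is not reported here. These shares are estimates from reads allocated among transcripts. For Rpl3, named copies of the gene held 68.6% of the family's counts, and for Rpl35a 12.4%. Gene models without a ribosomal name that match in sequence held 15.5% for Rpl30 and 5.28% for Rpl35a. The row shares of Rpl3, Rpl30 and Rpl35a are therefore uncertain. Rpl3, Rpl30, Rpl35a and Rpl22 were singled out after their values were seen.

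**Figure D4:**
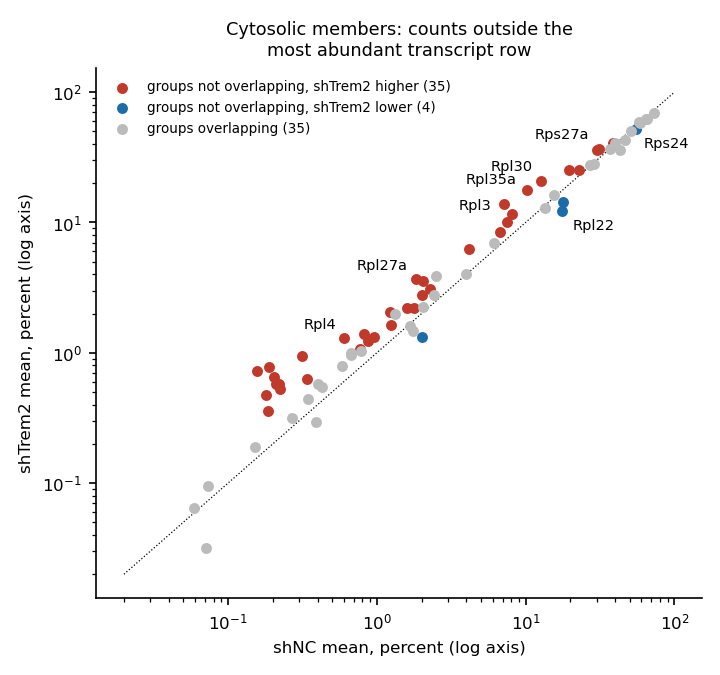
Share of counts outside the most abundant transcript row for 74 cytosolic members, shTrem2 mean against shNC mean, on log axes in percent, with equality dotted. Red points (35) have all shTrem2 libraries above all shNC libraries, blue points (4) all below, and grey points overlap. Rpl3 lies at 7.12% in shNC and 13.8% in shTrem2.

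Ribosomal protein genes have many processed copies that share reads with them. Named copies were found for 60 cytosolic members (296 copies) and 2 mitochondrial members. They held between 8.14% and 8.32% of the counts of the cytosolic families in each library. Copies that are members themselves, such as Rpl10-ps3, counted as both in that share. Rpl10-ps3 held nearly all counts of the Rpl10 copies. For Rps18 and Rps2 copies held 91.0% of the family's counts, for Mrpl23 84.8%, for Rpl10 74.9% and for Rpl3 68.6%, so the values of these genes are uncertain. Gene models without a ribosomal name that match a member in sequence held a further share, the largest being 57.0% for Rpl27a, 49.6% for Rpl29 and 43.5% for Rpl21. Adding all of them to the members left 58 of 77 tested cytosolic genes lower and 1 higher, and 20 mitochondrial genes higher and 5 lower. Fewer cytosolic genes were tested there because Rpl10-ps3 and Rps27rt were added as copies.

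Genes that build or serve the ribosome were called in both directions, as were all genes tested (28.8% higher and 28.6% lower). Of 52 factors of cytosolic ribosome biogenesis 28 rose and 5 fell, with a median log2 fold change of 0.17. Nop58, a core protein of box C/D snoRNPs that guide rRNA methylation, rose by 0.65, and Gar1 by 0.53. Gar1 belongs with Dkc1, Nop10 and Nhp2 to the H/ACA snoRNPs that guide pseudouridylation, and these rose by 0.45, 0.45 and 0.30, a set singled out after its values were seen. Mdn1, the large ATPase that remodels pre-60S particles, fell by 0.56, and Rrp9 of the U3 snoRNP by 0.52. Of 15 genes of RNA polymerase I, which transcribes rRNA, 7 rose and 3 fell, among them Polr1f (0.49) and Polr1h (0.31) upward and Ttf1 (-0.34) and Polr1d (-0.32) downward. The call of Polr1f was lost in both FPKM fits (FDR 0.0588 and 0.0568), and that of Polr1h with the length offset (FDR 0.0543) and without shNC replicate 2 (FDR 0.0881), shTrem2 replicate 1 (FDR 0.0562) or shTrem2 replicate 2 (FDR 0.0555).

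Of 16 other mRNAs with a 5'TOP tract 9 fell and 2 rose (28.6% and 28.8% of all genes tested). Their median log2 fold change was -0.20. Eif3f fell by 0.49 and Eif4b by 0.47, both initiation factors, while Hnrnpa1 and Vim rose by 0.33 and 0.53. The elongation factors Eef2 and Eef1a1, which are on that list too, fell by 0.39 and 0.27. Eif5a and the release factor Gspt1 rose by 0.38 and 0.31. In all, 2 of 10 elongation and termination factors rose (20%) and 3 fell (30%). Of 36 initiation factors 14 rose, among them Eif5b by 0.62 and Eif3b by 0.41, and 8 fell. In the mTORC1 and Myc list of 20 genes 5 rose (25%) and 3 fell (15%), both below the shares of all genes tested. Mxd1, a partner of Max that opposes Myc, had the widest change at -1.12, with Rps6kb2 at -0.32, and Max and Rheb rose by 0.43 and 0.37. The call of Rps6kb2 was lost with its most abundant transcript row alone (log2 fold change -0.35, FDR 0.183). The median over that list was 0.11.

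Among the 35 Mrpl and Mrps genes that the KEGG column did not include, 18 were higher and 2 lower (Mrps24 and Mrpl45). Their median log2 fold change was 0.19. Among all genes tested 28.8% were higher and 28.6% lower. Mrpl51 had the widest rise, from 33.6, 36.2 and 33.0 to 56.6, 52.3 and 64.4 CPM (log2 fold change 0.75, SE 0.08), and was singled out after its values were seen. Of 5 mitoribosomal subunits with other names 1 rose, Ptcd3, by 0.39. The assembly factors were mixed, with 6 of 22 higher (27.3%) and 5 lower (22.7%), near the shares of all genes tested. They ranged from Mrm2 (0.65) and Fastkd2 (0.56) to Mrm1 (-0.57) and Mtg1 (-0.50). Of 12 mitochondrial translation factors 2 rose (Gfm1 by 0.39 and Mtrf1l by 0.37) and 2 fell (Mtif2 by 0.27 and Mtfmt by 0.17). Each of these counts was 16.7% of the list, below the shares of all genes tested. The calls of Mtrf1l, Mtif2 and Mtfmt were each lost in at least 2 of 6 fits without 1 library and with the most abundant transcript row alone. Among 13 regulators of mitochondrial biogenesis 6 rose and 3 fell. Tfam, which packages mitochondrial DNA, rose by 0.50 and Nrf1 by 0.36, while Esrra and Yy1 fell by 0.63 and 0.38. The call of Nrf1 was lost in 4 alternative fits, with log2 fold changes of 0.17 and 0.18 in the FPKM fits (FDR 0.0995 and 0.096), 0.22 with the length offset (FDR 0.0535) and 0.35 with the most abundant transcript row alone (FDR 0.126).

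**Figure D5:**
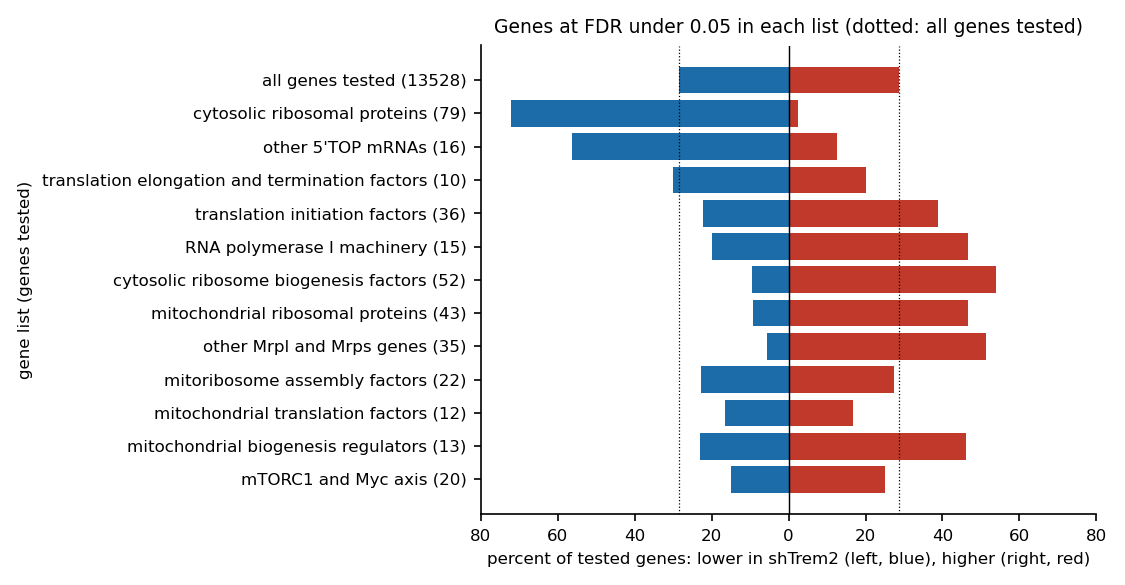
Percent of tested genes at an FDR under 0.05 that were lower (left, blue) or higher (right, red) in shTrem2, for all genes tested, for both member classes and for related gene lists, with the number tested in parentheses. Dotted lines mark all genes tested, 28.6% lower and 28.8% higher. Cytosolic ribosomal proteins have 72.2% lower, and mitochondrial ribosomal proteins 46.5% and biogenesis factors 53.8% higher.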

How the data were processed

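RNA-seq of RAW264.7 cells was compared between shNC and shTrem2, with 3 libraries each, grouped by the labels. According to the study's methods and the submitters' processing notes, the authors used fastp for read trimming, HISAT2 for alignment (GRCm39) and StringTie for transcript assembly. The counting tool and annotation release are not given in the sources used here. The authors deposited estimated counts per transcript (79.3% of nonzero values not whole) and FPKM per gene, and their group means were not used. Counts were summed per symbol and rounded. Rows without a symbol (0.908% to 1.12%) were left out.

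Genes were tested with edgeR 4.0.16 (TMM, filterByExpr, quasi-likelihood) in R 4.3.3 over 13528 genes, with Benjamini-Hochberg adjustment. CPM are TMM-scaled, and SE is the log2 fold change divided by the root of F. The study's thresholds were used (FDR under 0.05, and 1.5-fold). The depth allows up to 3 counts for a count of 0, between 0.153 and 0.189 CPM, for counting error only. DESeq2 1.42.0, limma 3.58.1 and the other alternatives are given in the closing section.

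Named were Trem2, members over 1.5-fold, the 3 largest changes per direction and the highest and lowest FPKM in each of Rpl, Rps, Mrpl and Mrps, fixed structural lists, and the 2 largest changes per direction in the other lists. A gene of the fixed lists is not reported here. Members and lists were chosen with earlier results of these data known. Promoters were RefSeq sequences of GRCm38.p6, matched by symbol for 100 members. Unnamed copies were gene models whose GENCODE M21 transcript shared at least 30% of its 31-base words with a member.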

Additional observations from a re-analysis of the deposited data

How the results depend on the processing

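The cytosolic count of lower genes lay within 1.5 times its value of 57 in every alternative run, from 43 at an FDR under 0.01 to 62 with library size only, and its median log2 fold change was never above -0.16. The count of higher cytosolic genes, 2, was 1 with DESeq2, upper quartile scaling, library size only, FDR under 0.01, the most abundant transcript row only and either way of adding copies, and 4 when all genes of these names were taken whatever the pathway. It ranged from 1 to 4 when 1 library was left out. The count of higher mitochondrial genes, 20, became 13 with the most abundant transcript row only and 37 of 77 with all genes of these names. The mitochondrial median of 0.16 became 0.12 with library size only, 0.11 with limma-trend on log2(FPKM + 1), 0.12 on log2(FPKM + 0.1) and 0.13 with the most abundant transcript row, and ranged from 0.12 to 0.17 without 1 library, lowest without shTrem2 replicate 3. The 4 members over 1.5-fold became 2 with limma-trend on log2(FPKM + 1). The all-gene median was between -0.034 and 0.003 under the other scalings.

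Of 78 named genes 56 kept direction and call in all 21 fits. Reversed log2 fold changes were 0.041 and 0.042 for Mrps17 with the limma-trend fits at pseudocounts of 1 and 0.1, 0.074 with the effective length offset and 0.093 with the most abundant transcript row, 0.036 for Mrpl24 and -0.013 for Fau with that row, and -0.011 and -0.0067 for Rps2 with named and with all copies added. Rpl31 was at 0.018 with both limma-trend fits and 0.052 with the offset. Rplp0 was at -0.016 with upper quartile scaling and the most abundant row, -0.024 with both limma-trend fits, -0.031 with library size only, -0.0020 with no filter, -0.0019 with at least 10 counts, and -0.0059 and -0.0070 with copies added, and between -0.013 and 0.016 without 1 library. The copy and transcript-row alternatives were chosen after seeing the data. The cause was not tested.

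With the replicate number as a block 56 cytosolic genes were lower and 20 mitochondrial genes higher, and no call of a named gene changed. Deviations of same-numbered libraries had correlations of 0.0062, -0.0044 and 0.0066 and 0 of 6 libraries correlated best with its own number, so the libraries share a number and no pairing was seen.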
